A study of Mus musculus with 594 samples.

Results

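Txnip encodes thioredoxin-interacting protein, an arrestin-related protein, and is described here as 1 gene of the 11807 measured in mouse α and β cell tumour lines exposed to chromatin-targeting compounds. It was chosen by its measured values at 1 h, where it had the largest rise of all genes under the hydroxamic acids in each line, so its 1 h levels are a description and carry no test. The arrays at 6 and 24 h are other arrays and were tested. αTC1 cells, which express the glucagon gene, and βTC3 cells, which express insulin, were grown in low-glucose medium with serum and received 1 of 29 compounds in DMSO, or DMSO alone, for 1, 6 or 24 h.

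The hydroxamic acids were trichostatin A (0.22 µM), SAHA (1.3 µM), LBH-589 (0.015 µM), PXD101 (2.4 µM), ITF-2357 (10 µM), CRA-024781 (1.5 µM), pyroxamide (10 µM) and scriptaid (2 µM). The ortho-amino anilides were MS-275 (2.9 µM), CI-994 (10 µM) and MGCD-0103 (1.1 µM), and the cyclic tetrapeptides were apicidin (1.4 µM) and HC-toxin (0.12 µM). All 13 inhibit histone deacetylases. The others were the lysine methyltransferase inhibitors BIX-01294 (10 µM) and chaetocin (1.7 µM), the arginine methyltransferase inhibitor AMI-1 (10 µM), the DNA methylation inhibitors 5-azadeoxycytidine, zebuarine and RG-0108 (10 µM each), and 10 compounds known here by code name only (0.91 to 10 µM). Each compound was given at 1 dose. A compound group held 3 arrays per line and time. In αTC1 at 24 h 5 compounds had 2 arrays and 1 had 4. DMSO groups held 10 to 14. Each line is a single tumour-derived culture. The labels do not say whether replicates were separate cultures, so the p-values measure the spread between these arrays, which may be technical.

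αTC1 was read on 299 arrays and βTC3 on 295, in 7 batches and on 9 array plates. Array medians lay between 4.36 and 4.73 on the log2 scale, and their number limits the precision of each value. In DMSO the glucagon gene Gcg had a median log2 level of 12.4 in αTC1 and 9.57 in βTC3, and insulin (Ins2) had 4.24 in αTC1 and 13.2 in βTC3. The β cell factor Pdx1 had 4.13 in αTC1 and 9.35 in βTC3. These markers fit the line labels, although βTC3 also held Gcg and somatostatin (Sst, 4.03 in αTC1 and 12.7 in βTC3). Others went against them: transthyretin (Ttr), listed as an α cell marker, had 11.5 in αTC1 and 12.9 in βTC3, and the β cell glucose transporter Slc2a2 was near the low end of the arrays in both (2.87 in αTC1 and 3.04 in βTC3). All 5 genes of non-endocrine cells (Col1a1, Pecam1, Ptprc, Krt19 and Cpa1) had medians of 2.75 to 3.52 in both lines, near the low end of the arrays.

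As background, the Txnip protein binds reduced thioredoxin and lowers its activity, and it promotes removal of glucose transporters from the cell surface. Its gene is a glucose-responsive target of the factors MondoA (Mlxip) and ChREBP (Mlxipl), which act with Mlx at carbohydrate response elements. In islet β cells Txnip is known for its induction by glucose and its link to oxidative stress and cell death. In human cancer cells it is known as a gene induced by the deacetylase inhibitor SAHA. Deacetylase inhibitors keep acetyl groups on histones and other proteins by blocking their removal.

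The stretch before the Txnip start is shown because it holds the letters through which these factors are known to act on the gene. It covers 250 bases on the forward strand at chr3:96557707-96557956 of mouse build GRCm38.p6, from RefSeq, and ends at the base before the annotated start. Capitals mark CCAAT, read on either strand, and a pair of CACGNG copies with 5 bases between them.
Txnip promoter: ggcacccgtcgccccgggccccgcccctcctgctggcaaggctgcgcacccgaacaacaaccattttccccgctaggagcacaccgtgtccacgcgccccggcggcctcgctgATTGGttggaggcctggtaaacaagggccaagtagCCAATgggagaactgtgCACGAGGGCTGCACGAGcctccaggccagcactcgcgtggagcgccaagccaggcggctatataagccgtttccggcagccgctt
CCAAT, the box bound by the factor NF-Y, was found once inverted (ATTGG, bases 137 to 133 before the start) and once forward (bases 102 to 98). A match to CCAAT on either strand was present in 33.8% of the 32851 windows of this length in the promoter table, and at least 2 matches in 10.1%. The CACGNG pair, searched on both strands, lay at bases 85 to 69 before the start, and 15 of all windows (0.0457%) held one. The GC box GGGCGG was found once, inverted, at bases 230 to 225 (present in 32.7% of windows). The E box CACGTG (6.02% of windows), which CACGNG also covers, and TATAAA (12.4% of windows) were not found in this window. Only exact letters were searched, and the near match tatataag stands close to the start. No motif overlapped another here. These matches are letters only, and the arrays do not measure binding.

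2 probe sets on the array carry the symbol Txnip. The brighter, 1415996_at, had a mean log2 level of 7.55 over all arrays (range 4.76 to 9.36) and stands for the gene in all values below. The other, 1415997_at, had a mean of 6.45 (range 3.87 to 8.72). The probe sets correlated at a Pearson r of 0.61 over the 594 arrays, which share the same RNA, and at 0.10 to 0.78 within a line and time, with the lowest value in βTC3 at 6 h. The spread inside groups of the same line, compound and time was 0.48 for the brighter and 0.68 for the other (pooled SD). Mean deviations from the group means by array plate ran from -0.35 to 0.24 for the brighter and from -0.67 to 0.56 for the other. Their part in the results was not tested, beyond the alternatives given at the end.

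Without compound, Txnip was a moderately expressed gene in both lines. In αTC1 the DMSO level was 6.47, 7.26 and 7.94 (lowest, median and highest log2 intensity) at 1 h, 6.44, 6.78 and 7.74 at 6 h, and 5.07, 6.51 and 7.19 at 24 h (14 arrays each). In βTC3 it was 6.46, 7.43 and 8.07 at 1 h (12 arrays), 5.80, 6.80 and 7.12 at 6 h (10 arrays) and 5.25, 6.46 and 7.01 at 24 h (12 arrays). The levels overlapped between the lines and between the times. These ranges pool all batches, and the highest αTC1 arrays at 6 h (7.61 and 7.74) were both of batch 10. By percentile among all genes Txnip stood at 75.0 at 1 h and 63.9 at 24 h in αTC1, and at 76.8 and 64.8 in βTC3.

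Txnip under DMSO was lower at 24 h than at 6 h in αTC1 (6.36 ± 0.66 against 6.97 ± 0.45, SD, n = 14 each), and limma gave a log2 change of -0.61 ± 0.15 (SE, adjusted p = 0.00941, 2.38% of genes called). In βTC3 the levels were 6.42 ± 0.52 at 24 h and 6.69 ± 0.39 at 6 h (SD, n = 12 and 10), a change of -0.29 ± 0.095 at the threshold of an adjusted p under 0.05 (adjusted p = 0.049988, 5.35% of genes called). That call was lost when any 1 of 17 of the 22 arrays was left out (-0.34 to -0.23), and with no batch term the call was lost in both lines (-0.61 in αTC1 and -0.27 in βTC3). Between the lines αTC1 had 0.26 ± 0.12 more Txnip than βTC3 at 6 h (adjusted p = 0.0486, 59.4% of genes called), and this call was lost without any 1 of 13 of the 24 arrays (0.20 to 0.30). At 24 h the line difference of -0.06 ± 0.19 (95% interval -0.44 to 0.32) did not pass (adjusted p = 0.808), while 59.2% of genes were called. At 1 h, given as a description, it was -0.13 ± 0.14, beside 59.6% of all genes called.

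At 1 h most hydroxamic acids and several code-name compounds had Txnip well above DMSO in both lines, and the ortho-amino anilides as a class did not. The classes met in αTC1, where the anilide CI-994 stood at 0.64 and the hydroxamic acid LBH-589 at 0.60. The largest change of any compound in either line was that of CRA-024781, a hydroxamic acid. In αTC1 its 3 arrays read 8.27, 8.62 and 9.33, against 6.47 to 7.94 in DMSO, a change of 1.57 ± 0.24 (log2, SE). In βTC3 its arrays read 8.33, 8.48 and 9.07, against 6.46 to 8.07 in DMSO, a change of 1.29 ± 0.14. Neither group overlapped DMSO.

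**Figure D1:**
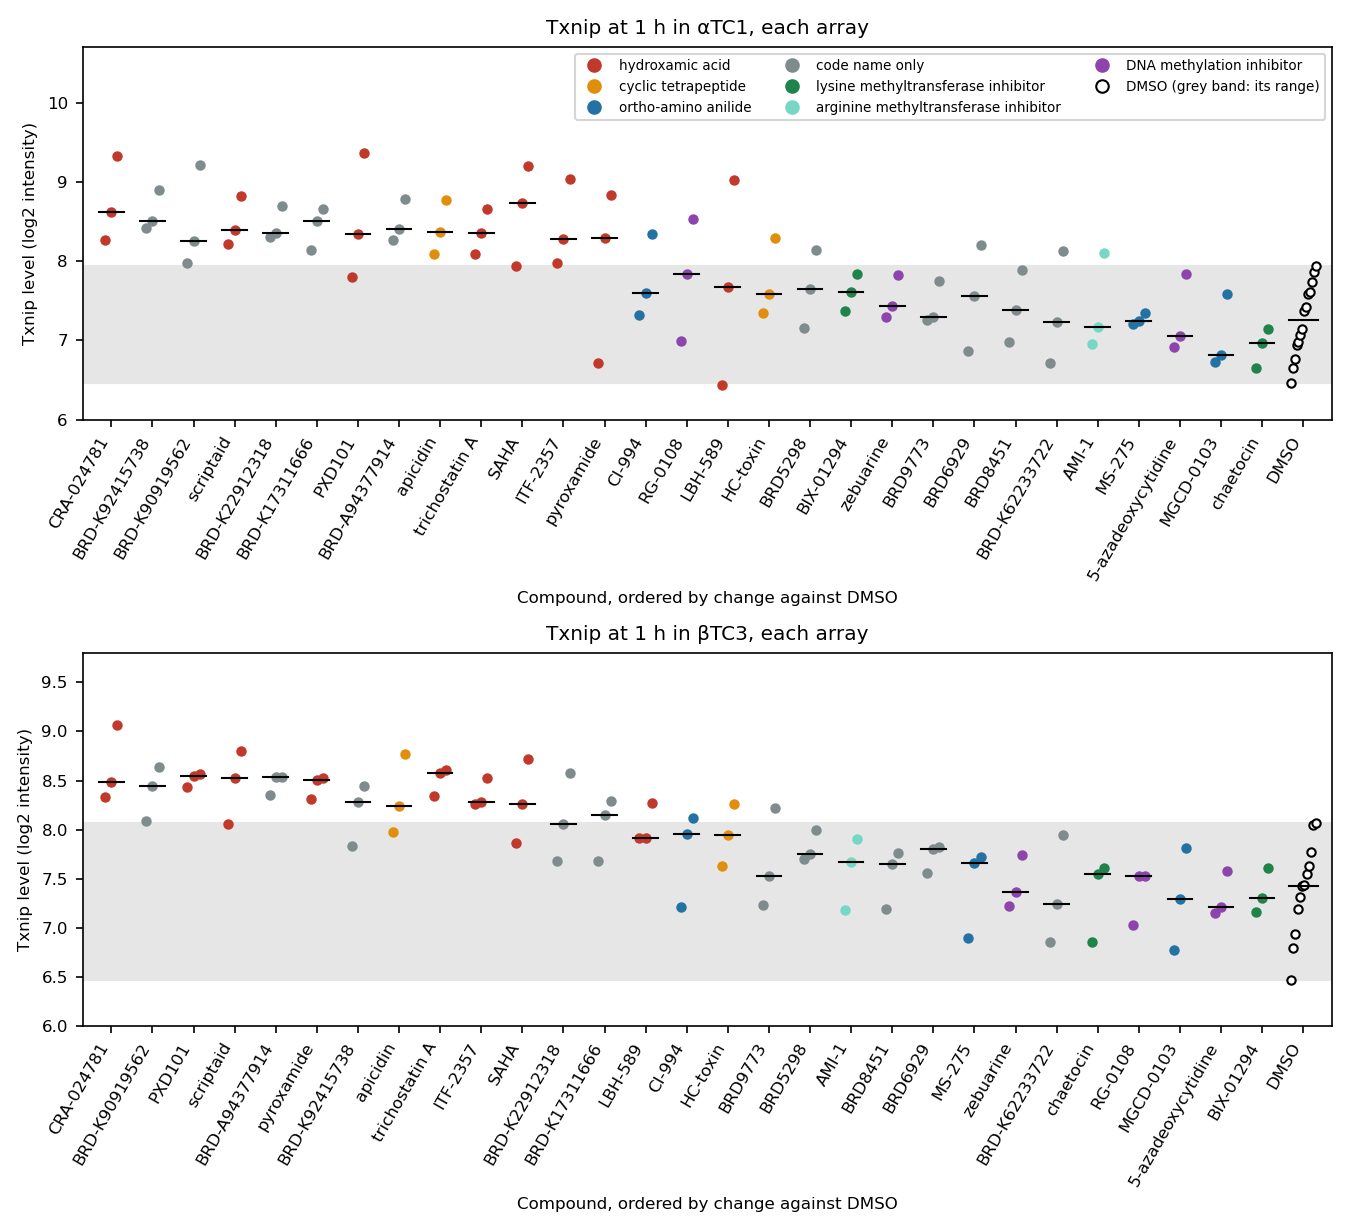
Txnip level (log2 intensity) on each array at 1 h in αTC1 (top) and βTC3 (bottom), with compounds ordered by their change against DMSO and coloured by class. Bars are medians, and open points with the grey band are DMSO arrays (6.47 to 7.94 in αTC1, 6.46 to 8.07 in βTC3). Most hydroxamic acids stand above the band and the ortho-amino anilides lie largely within it.

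In αTC1, 12 of the 29 compounds changed Txnip by a log2 value of at least 1 at 1 h. For 10 all arrays lay above all DMSO arrays. The share of all genes with such a separation was not counted, here or below. After CRA-024781 came BRD-K92415738 (1.51 ± 0.23), BRD-K90919562 (1.39 ± 0.23), scriptaid (1.37 ± 0.24), BRD-K22912318 (1.35 ± 0.23) and BRD-K17311666 (1.34 ± 0.23). PXD101 (1.34 ± 0.24), BRD-A94377914 (1.32 ± 0.24), apicidin (1.30 ± 0.24), trichostatin A (1.19 ± 0.23), SAHA (1.14 ± 0.24) and ITF-2357 (1.14 ± 0.24) followed. No neighbours among these 12 differed by more than their combined SE. Below them was the largest step between neighbours (0.35), to pyroxamide (0.79 ± 0.24). It was the only one of the 28 steps larger than the combined SE of its pair, which is a description and no test of a break. The pyroxamide arrays read 6.72, 8.30 and 8.84, from inside the DMSO range to above it.

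The remaining αTC1 values formed a gradual slope. CI-994 stood at 0.64, RG-0108 at 0.62, LBH-589 at 0.60 and HC-toxin at 0.57, with BRD5298 at 0.48 and BIX-01294 at 0.43. LBH-589, given at the lowest dose, had arrays of 6.44, 7.67 and 9.03, from just below the DMSO range to well above it. Zebuarine (0.35), BRD9773 (0.27), BRD6929, BRD8451 and BRD-K62233722 (0.25 each), AMI-1 (0.24), MS-275 (0.17) and 5-azadeoxycytidine (0.11) came next. MGCD-0103 (-0.06) and the last compound, chaetocin (-0.19), were the only ones below 0.

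In βTC3 the order was similar at its top. 10 compounds changed Txnip by at least 1, and for 7 all arrays lay above DMSO. BRD-K90919562 (1.24 ± 0.13), PXD101 and scriptaid (1.17 each), BRD-A94377914 (1.13), pyroxamide (1.11), BRD-K92415738 (1.05), apicidin (1.04), trichostatin A (1.02) and ITF-2357 (1.01) followed CRA-024781. SAHA (0.99), BRD-K22912318 (0.96), BRD-K17311666 (0.90) and LBH-589 (0.74) were next. The largest step (0.27) then lay between LBH-589 and CI-994 (0.47). It was again the only one of 28 above the combined SE of its pair, also as a description. HC-toxin stood at 0.46 and BRD9773 at 0.32, and the other 12 compounds between 0.28 (BRD5298) and -0.13 (BIX-01294). Doses differed between most compounds, so this is an order of responses at the doses used.

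As classes, with equal weight per compound, the hydroxamic acids stood at 1.14 ± 0.12 in αTC1 and 1.06 ± 0.073 in βTC3 at 1 h. Txnip had the largest change of all 11807 genes in each case, which is how it was chosen. Within batches that held both kinds of array the value ran from 0.71 to 1.77 in αTC1 (7 batches) and from 0.78 to 1.44 in βTC3 (6 batches). The cyclic tetrapeptides stood at 0.93 ± 0.18 in αTC1 and 0.75 ± 0.10 in βTC3. They split, with apicidin at 1.30 in αTC1 and 1.04 in βTC3 and HC-toxin at 0.57 in αTC1 and 0.46 in βTC3. Within batches their value ran from 0.16 to 1.66 in αTC1 and from -0.0032 to 1.34 in βTC3. The ortho-amino anilides stood at 0.25 ± 0.16 in αTC1 and 0.20 ± 0.096 in βTC3. Txnip was then at rank 21 in αTC1 and 201 in βTC3 of the 11807 genes by change. Within batches the anilides ran from -0.16 to 0.51 in αTC1, above 0 in 3 of 4 batches, and the value below 0 was of 1 array. In βTC3 they ran from 0.18 to 0.33, above 0 in all 3 batches. Of all 29 compounds, 11 in αTC1 and 4 in βTC3 had Txnip as the gene with the largest rise.

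By 6 h all 13 named deacetylase inhibitors had raised Txnip in both lines. In αTC1, 21 of 29 compounds raised it and 1 lowered it by limma with an adjusted p under 0.05. Over all compounds and genes 11.2% of tests were called up and 9.58% down. In βTC3, 22 raised it and none lowered it, against 11.3% and 10.7% of tests over all genes. All arrays lay above all DMSO arrays for 9 compounds in αTC1 and 15 in βTC3, and the share of all genes with such a separation was not counted. With the other Txnip probe set 11 compounds were called in αTC1 and 6 in βTC3, in place of 22 in each line. Each array reads the RNA of a whole culture, so more RNA per cell and more cells with a high level cannot be told apart.

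Under the hydroxamic acids at 6 h in αTC1 the 24 arrays had levels of 7.44, 8.12 and 8.57 (lowest, median and highest), against 6.44, 6.78 and 7.74 in DMSO. 19 arrays lay above the whole DMSO range. The change was 1.22 ± 0.064, or 2.32-fold (adjusted p = 2.78e-28, 50.9% of genes called). Pyroxamide (1.52 ± 0.12), PXD101 (1.47 ± 0.12) and trichostatin A (1.34 ± 0.12) had the largest values of the class and LBH-589 (0.85 ± 0.12) the smallest. In βTC3 the arrays read 6.76, 7.45 and 8.05, against 5.80, 6.80 and 7.12 in DMSO, with 22 of 24 above it. The change was 0.72 ± 0.076, or 1.65-fold (adjusted p = 2.63e-13, 50.3% of genes called), with compounds between 0.46 (scriptaid) and 0.95 (SAHA).

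The ortho-amino anilides stood at 0.25 in αTC1 and 0.20 in βTC3 at 1 h as a class. At 6 h they raised Txnip by 0.93 ± 0.087 in αTC1 (1.90-fold, adjusted p = 2.55e-14, 26.6% of genes called) and 0.98 ± 0.10 in βTC3 (1.97-fold, adjusted p = 8.58e-13, 29.4% of genes called). The αTC1 call was lost with the other probe set (0.66, adjusted p = 0.0849). MGCD-0103 had arrays of 7.39, 7.68 and 7.78 in βTC3, all above DMSO, and the largest change there (1.07 ± 0.14). In αTC1 it read 7.19, 7.50 and 8.10, overlapping the DMSO range of all batches, with a change of 0.76 ± 0.12. Each of these αTC1 arrays lay above the DMSO arrays of its own batch. The cyclic tetrapeptides raised Txnip by 1.19 ± 0.095 in αTC1 (adjusted p = 5.23e-18, 39.1% of genes called) and 0.86 ± 0.11 in βTC3 (adjusted p = 2.40e-10, 38.9% of genes called). In both lines all 6 of their arrays lay above DMSO.

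At 24 h the leading changes of Txnip lay within their SE of each other. In αTC1 they were those of CRA-024781 (2.50 ± 0.25), CI-994 (2.49 ± 0.30) and MS-275 (2.47 ± 0.25), and in βTC3 those of ITF-2357 (2.09 ± 0.15), CRA-024781 (2.06 ± 0.14) and PXD101 (2.00 ± 0.14). All 3 ITF-2357 arrays in βTC3 were of batch 10. In all, 21 compounds raised it and none lowered it in αTC1 (10.6% of tests over all compounds and genes called up and 10.7% down). In βTC3 21 raised it and none lowered it (9.49% up and 8.73% down). 20 compounds raised it in both lines at this time, and 17 did so at 6 and 24 h in both lines. The share of all genes with such joint calls was not counted.

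Under the hydroxamic acids at 24 h in αTC1 the 22 arrays read 6.72, 8.27 and 9.32, against 5.07, 6.51 and 7.19 in DMSO, and 21 lay above all DMSO arrays. The change was 1.89 ± 0.13, or 3.70-fold (adjusted p = 1.09e-20, 50.4% of genes called). In βTC3 the 24 arrays read 5.90, 7.72 and 9.02, against 5.25, 6.46 and 7.01 in DMSO, and 21 lay above. The change was 1.25 ± 0.072, or 2.38-fold (adjusted p = 4.71e-25, 43.2% of genes called). Within batches it ran from 1.23 to 2.65 in αTC1 and from 0.39 to 2.05 in βTC3, above 0 in all 7 batches of each line. Batches 4 to 6 read 1.23 to 1.67 in αTC1 and 0.39 to 0.805 in βTC3. Batches 7 to 10 read 2.10 to 2.65 in αTC1 and 1.67 to 2.05 in βTC3. The compounds differed widely. In αTC1 CRA-024781 and ITF-2357 were run only in batches 7 to 10, and scriptaid and LBH-589 only in batches 4 to 6. For these, a difference between compounds and one between batches cannot be told apart. CRA-024781 (2.50 ± 0.25 in αTC1 and 2.06 ± 0.14 in βTC3), PXD101 (2.31 and 2.00) and ITF-2357 (2.30 and 2.09) were high in both lines. Scriptaid was not called in either line, at 0.84 ± 0.30 in αTC1 (adjusted p = 0.272) and 0.37 ± 0.14 in βTC3 (adjusted p = 0.514). Over all genes scriptaid called 50 in αTC1 and 6 in βTC3 at this time. LBH-589 was called in αTC1 (1.05 ± 0.25, adjusted p = 0.00142) and not in βTC3 (0.40 ± 0.14, adjusted p = 0.0652), and the difference between the lines was not tested.

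The ortho-amino anilides had Txnip levels of 8.24, 8.72 and 9.09 in αTC1 at 24 h (8 arrays), all above DMSO. The change was 2.38 ± 0.18, or 5.22-fold (adjusted p = 2.18e-18, 43.8% of genes called). In βTC3 the 9 arrays read 7.30, 7.70 and 8.34, also all above DMSO, with a change of 1.45 ± 0.094, or 2.74-fold (adjusted p = 1.78e-22, 43.7% of genes called). The 3 compounds lay close together, at 2.20 to 2.49 in αTC1 and 1.36 to 1.50 in βTC3. The cyclic tetrapeptides raised Txnip by 1.72 ± 0.19 in αTC1 (3.28-fold, adjusted p = 2.18e-11, 36% of genes called) and 0.84 ± 0.11 in βTC3 (1.79-fold, adjusted p = 1.02e-09, 25.5% of genes called).

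**Figure D2:**
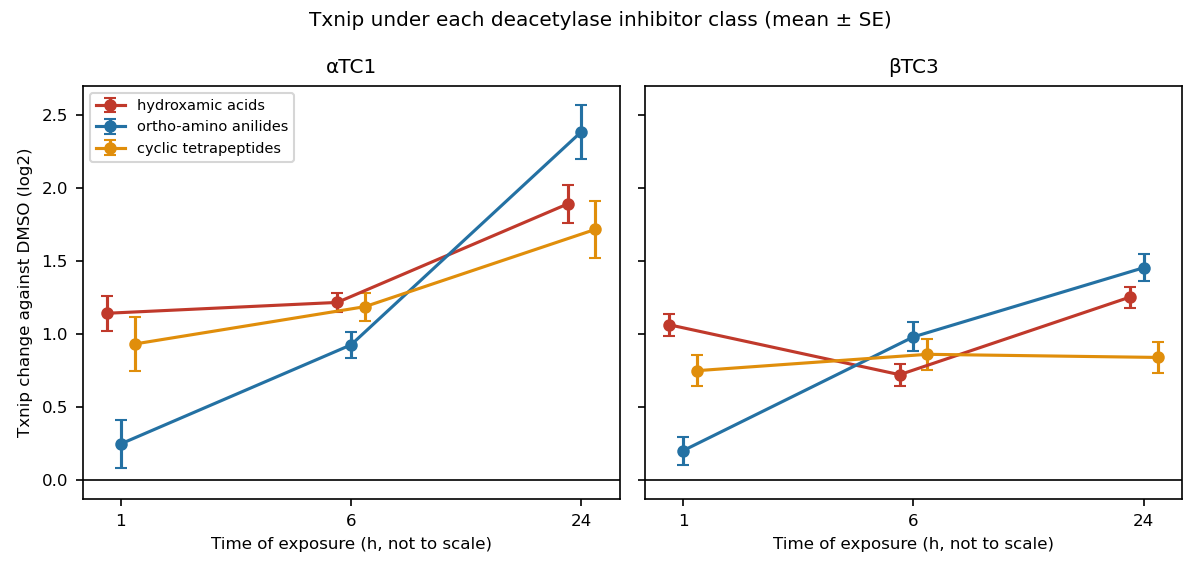
Change of Txnip against DMSO of the same line and time (log2, mean ± SE over arrays, equal weight per compound) for the 3 deacetylase inhibitor classes at 1, 6 and 24 h in αTC1 (left) and βTC3 (right). The ortho-amino anilides start at 0.25 and 0.20 at 1 h and reach 2.38 and 1.45 at 24 h, while the hydroxamic acids already stand at 1.14 and 1.06 at 1 h.

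Whether the change grew with time was tested as the change at 24 h minus that at 6 h, in joint fits. For the ortho-amino anilides it grew by 1.62 ± 0.25 in αTC1 (adjusted p = 1.68e-08, 35.7% of genes called) and 0.54 ± 0.14 in βTC3 (adjusted p = 0.00119, 29.6%). For the hydroxamic acids it grew by 0.65 ± 0.19 in αTC1 (adjusted p = 0.00499, 29.8%) and 0.53 ± 0.11 in βTC3 (adjusted p = 5.87e-05, 33.6%). For the cyclic tetrapeptides the difference was 0.58 ± 0.28 in αTC1 (95% interval 0.03 to 1.13, adjusted p = 0.122, 24.1%) and 0.05 ± 0.16 in βTC3 (-0.26 to 0.37, adjusted p = 0.892, 19.1%), and neither passed. The DMSO level itself was lower at 24 h than at 6 h, as given above, and it is part of each of these differences. Each joint fit used 1 batch term for both times. In αTC1 the DMSO mean of batch 8 was 6.95 at 6 h and 5.15 at 24 h, and that of batch 7 was 6.86 and 6.68. Separate batch terms per time were not tried. The growth under the ortho-amino anilides in αTC1 kept its call under all alternatives run. The other called growths lost theirs with the other probe set or with no batch term (0.48 to 0.70).

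The lines were compared in joint fits with 1 batch term for both lines. At 24 h the DMSO mean of batch 8 was 5.1 in αTC1 and 6.8 (1 array) in βTC3, and that of batch 7 was 6.7 and 6.4. Separate batch terms per line were not tried. The value given is the change in αTC1 minus the change in βTC3. At 24 h it was larger in αTC1 under the ortho-amino anilides (1.07 ± 0.31, adjusted p = 0.00377, 28.6% of genes called) and the cyclic tetrapeptides (0.94 ± 0.34, adjusted p = 0.0347, 21.7%). The first call was lost without replicate 1 (0.88, adjusted p = 0.051). The second was lost in 8 of 31 leave-out fits (0.66 to 1.19), among them those without apicidin and without HC-toxin, and with no batch term (1.02). With the other probe set it read 0.56 (adjusted p = 0.408). Under the hydroxamic acids at 24 h the difference was 0.53 ± 0.24 (0.05 to 1.01, adjusted p = 0.0806, 33.9%) and did not pass. At 6 h the differences were 0.33 ± 0.14 for the hydroxamic acids (adjusted p = 0.0681, 30%), -0.03 ± 0.18 for the ortho-amino anilides (-0.38 to 0.33, adjusted p = 0.962, 11.7%) and 0.28 ± 0.20 for the cyclic tetrapeptides (-0.12 to 0.68, adjusted p = 0.403, 17.4%).

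The hydroxamic acids were also set against the ortho-amino anilides, at doses that differ within and between the classes. All anilide arrays were of batches 4 to 6 in αTC1 at 6 and 24 h and in βTC3 at 6 h. In βTC3 at 24 h 1 anilide array was of batch 10 and the others of batches 4 to 6. In αTC1 at 6 h CRA-024781, ITF-2357, pyroxamide and PXD101 were run only in batches 7 to 9. The contrast thus rests in part on the fitted batch terms. Changes against DMSO of the same batch were also read in batches 4, 5 and 6, with 1 to 4 hydroxamic acids in each. In αTC1 at 6 h the hydroxamic acids read 1.04, 0.88 and 1.03 and the anilides 1.00, 0.90 and 0.79. At 24 h the hydroxamic acids read 1.67, 1.23 and 1.28 and the anilides 2.72, 2.13 and 2.38. In βTC3 at 6 h the hydroxamic acids read 0.98, 0.60 and 0.58 and the anilides 1.21, 0.70 and 0.94. In βTC3 at 24 h the hydroxamic acids read 0.66, 0.805 and 0.39 and the anilides 1.88, 1.32 and 1.22. Batch 10 there went the other way, at 1.71 and 1.34 (1 anilide array). These within-batch differences were not tested. In the fits over all batches, the hydroxamic acids in αTC1 had more Txnip at 6 h (0.29 ± 0.081, adjusted p = 0.00178, 44.8% of genes called). At 24 h they had less (-0.49 ± 0.18, adjusted p = 0.0264, 27.6%). In βTC3 they had less at 6 h (-0.26 ± 0.089, adjusted p = 0.011, 50.2%), and at 24 h the difference of -0.20 ± 0.085 (-0.37 to -0.03) did not pass (adjusted p = 0.0628, 32.5%). These calls are small beside those against DMSO, and all 3 were lost with no batch term (0.29, -0.56 and -0.059). The call at 24 h in αTC1 was lost in 7 of 14 leave-out fits (-0.63 to -0.34), among them that without scriptaid (-0.34). The call at 6 h was lost in αTC1 without MGCD-0103 or replicate 2 (0.21 and 0.23), and in βTC3 without MGCD-0103, replicate 2 or replicate 3 (-0.21, -0.17 and -0.21).

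**Figure D3:**
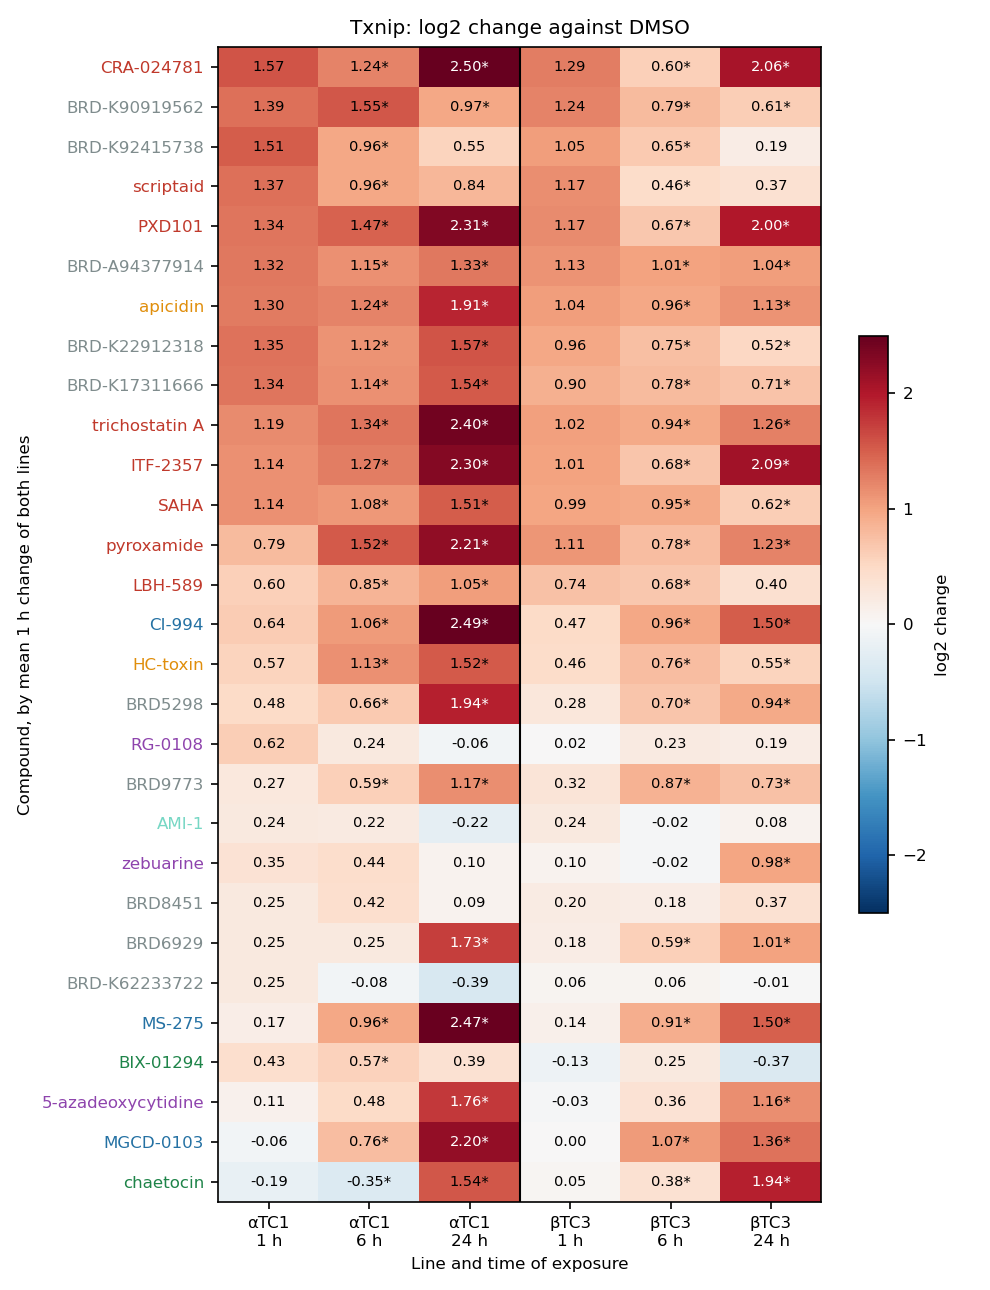
Change of Txnip against DMSO (log2) for each of the 29 compounds (rows, ordered by the mean of both 1 h changes, names coloured by class) at 1, 6 and 24 h in αTC1 (left) and βTC3 (right). An asterisk marks an adjusted p under 0.05 at 6 and 24 h, and 1 h values carry no test. CRA-024781, in the first row, stays high at 24 h (2.50 and 2.06), while scriptaid stands at 0.84 and 0.37 there.

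Single compounds followed distinct courses. BRD-K92415738 had the second largest change at 1 h in αTC1 (1.51, with arrays of 8.42, 8.51 and 8.90) and 1.05 in βTC3. At 6 h it stood at 0.96 ± 0.12 in αTC1 (adjusted p = 3.60e-10) and 0.65 ± 0.14 in βTC3 (adjusted p = 7.66e-05). At 24 h it was called in neither line, at 0.55 ± 0.30 in αTC1 (2 arrays, 5.49 and 7.52) and 0.19 ± 0.14 in βTC3 (arrays of 5.59, 7.12 and 7.28). The DMSO means in the batches of these 2 αTC1 arrays were 5.15 and 6.58. Scriptaid was likewise not called at 24 h. Its changes at 1, 6 and 24 h were 1.37, 0.96 and 0.84 in αTC1, where it had 2 arrays at 24 h, and 1.17, 0.46 and 0.37 in βTC3. Differences between times were not tested for single compounds.

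Chaetocin, a fungal inhibitor of lysine methyltransferases, ran the other way. At 1 h its αTC1 arrays read 6.65, 6.96 and 7.15, within the DMSO range. At 6 h they read 6.22, 6.25 and 7.0, and the change of -0.35 ± 0.12 was the only fall of Txnip called for any compound (adjusted p = 0.0226). With the other probe set no fall was called at 6 h in αTC1 (11 compounds up and 0 down). In βTC3 at 6 h Txnip rose by 0.38 ± 0.14 (adjusted p = 0.0302), with arrays of 6.31, 7.06 and 7.42 that overlapped DMSO, and the opposite calls were not tested against each other. At 24 h Txnip rose by 1.54 ± 0.23 in αTC1 (arrays from 7.58 to 8.64, adjusted p = 4.00e-08) and 1.94 ± 0.14 in βTC3 (7.87, 8.42 and 8.51, adjusted p = 5.53e-20). All these arrays lay above DMSO. BIX-01294, the other lysine methyltransferase inhibitor, raised Txnip at 6 h in αTC1 (0.57 ± 0.12, adjusted p = 9.93e-04) and was called nowhere else (0.25 in βTC3 at 6 h, and 0.39 in αTC1 and -0.37 in βTC3 at 24 h).

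The DNA methylation inhibitor 5-azadeoxycytidine was called at 24 h alone, at 1.76 ± 0.25 in αTC1 (arrays of 6.96, 8.16 and 8.48, adjusted p = 5.97e-07) and 1.16 ± 0.14 in βTC3 (7.35, 8.13 and 8.13, adjusted p = 3.37e-09). In αTC1 1 of these arrays lay inside the DMSO range (6.96, batch 8, DMSO mean there 5.15) and in βTC3 none did. At 6 h 5-azadeoxycytidine stood at 0.48 in αTC1 and 0.36 in βTC3, and zebuarine at 0.44 and -0.02, none of them called. Adjustment ran over the genes of each compound apart, so a call also depends on how many genes that compound changed. At 24 h zebuarine was called in βTC3 (0.98 ± 0.14, arrays of 7.48, 7.72 and 7.86, adjusted p = 1.59e-06). In αTC1 it stood at 0.10 ± 0.25 (4.99, 6.74 and 6.87, adjusted p = 0.943), and the difference between the lines was not tested. RG-0108 was called at neither time in either line. AMI-1, BRD8451 and BRD-K62233722 were not called at 6 or 24 h in either line, making 4 such compounds with RG-0108.

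**Figure D4:**
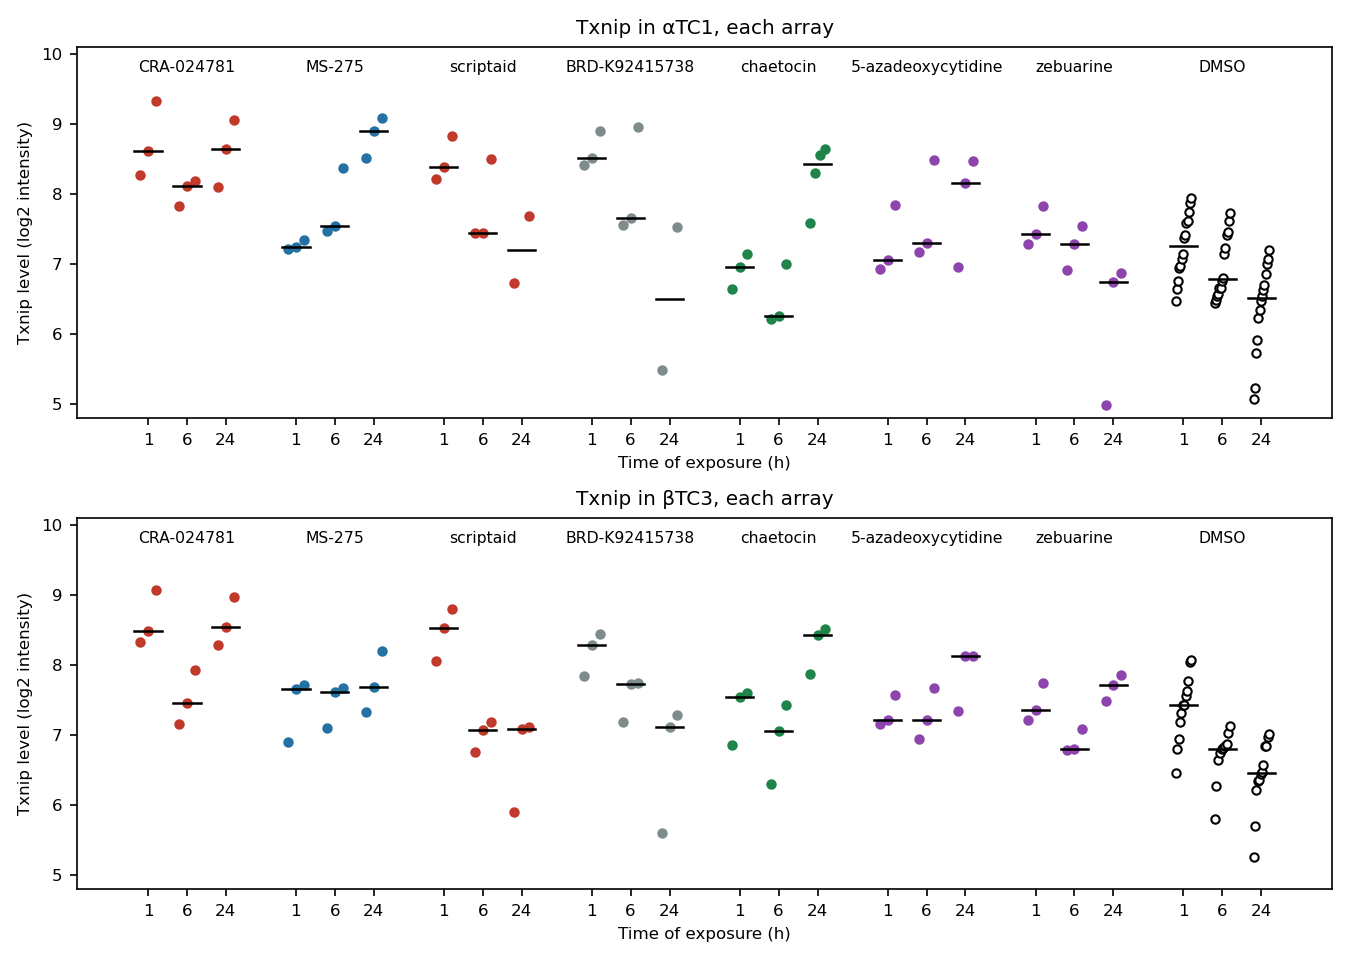
Txnip level (log2 intensity) on each array at 1, 6 and 24 h for 7 compounds and DMSO in αTC1 (top) and βTC3 (bottom), with bars at the medians and DMSO as open points. Scriptaid and BRD-K92415738 are high at 1 h and overlap DMSO at 24 h, while chaetocin arrays at 24 h (7.58 to 8.64 in αTC1, 7.87 to 8.51 in βTC3) lie above all DMSO arrays.

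3 further code-name compounds had small changes at 1 h and were called in both lines at 24 h. BRD6929 stood at 0.25 in αTC1 (adjusted p = 0.738) and 0.59 in βTC3 (adjusted p = 0.0297) at 6 h, and at 1.73 ± 0.25 and 1.01 ± 0.14 at 24 h (adjusted p = 9.55e-08 and 2.25e-08). BRD5298 stood at 0.66 in αTC1 and 0.70 in βTC3 at 6 h and at 1.94 ± 0.25 and 0.94 ± 0.14 at 24 h, called each time. BRD9773 was called each time as well (0.59 and 0.87 at 6 h, 1.17 and 0.73 at 24 h).

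At the shared dose of 10 µM, 4 pairs of named compounds were compared in each line at 6 and 24 h, 16 tests in all, with p-values adjusted over the 16 given after those over all genes. ITF-2357 and pyroxamide are both hydroxamic acids, CI-994 is an ortho-amino anilide, and 5-azadeoxycytidine and zebuarine both inhibit DNA methylation. In αTC1 CI-994 shared no batch with ITF-2357 or pyroxamide at 6 or 24 h. Its differences from them in that line rest on the fitted batch terms. In βTC3 at 24 h the ITF-2357 arrays were all of batch 10, which held 1 anilide array. The difference of ITF-2357 from CI-994 there thus also rests in large part on the batch terms. 4 of the 16 differences passed over all genes, and the same 4 passed over the 16. 5-azadeoxycytidine had 1.67 ± 0.31 more Txnip than zebuarine in αTC1 at 24 h (adjusted p = 2.35e-04 over genes and 1.44e-05 over the 16, 6.19% of genes called). This call was lost without replicate 2 (1.25, adjusted p = 0.136). ITF-2357 had 0.86 ± 0.18 more than pyroxamide in βTC3 at 24 h (adjusted p = 1.80e-04 and 6.31e-05, 16.3%) and 0.59 ± 0.19 more than CI-994 there (adjusted p = 0.02 and 0.0175, 20.8%). The second of these was lost without any 1 of the 3 replicates (0.53 to 0.58). Pyroxamide had 0.47 ± 0.17 more than CI-994 in αTC1 at 6 h (adjusted p = 0.0231 and 0.0242, 30.2%), which was lost without replicate 2 or 3 (0.47 each) and turned with the other probe set (-0.086). With no batch term none of the 4 was called (1.67, 0.59, 0.53 and 0.44).

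The other 12 differences did not pass. Between ITF-2357 and pyroxamide, which share the hydroxamic acid group, the 95% interval was -0.55 to 0.05 in αTC1 and -0.42 to 0.23 in βTC3 at 6 h, and -0.55 to 0.72 in αTC1 at 24 h. Between 5-azadeoxycytidine and zebuarine it was -0.27 to 0.35 in αTC1 and 0.06 to 0.71 in βTC3 at 6 h, and -0.15 to 0.51 in βTC3 at 24 h. Between ITF-2357 and CI-994 it was -0.12 to 0.54 in αTC1 and -0.64 to 0.08 in βTC3 at 6 h, and -0.93 to 0.55 in αTC1 at 24 h. Between pyroxamide and CI-994 it was -0.54 to 0.18 in βTC3 at 6 h, and -1.02 to 0.47 in αTC1 and -0.63 to 0.09 in βTC3 at 24 h.

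Genes around Txnip were read under the hydroxamic acids, in 5 lists, with changes given for αTC1 at 6 and 24 h and then βTC3 at 6 and 24 h. The share of all genes called in these comparisons is that given above (43.2% to 50.9%), and the median change of all genes was -0.013, 0.0037, -0.0081 and 0.0071. Of the α-arrestin family, relatives of Txnip, 2 of 5 listed genes were measured. Arrdc1, an adaptor for ubiquitin ligases, rose in all (0.63, 0.42, 0.97 and 0.23). Arrdc4, the family member that shares glucose induction with Txnip, fell at 6 h in αTC1 (-0.36 ± 0.085, adjusted p = 1.89e-04) and was not called elsewhere (-0.03, -0.02 and 0.11). With all probe sets averaged its fall was lost and Arrdc4 was called up at 24 h in αTC1 (1 α-arrestin up and 0 down at 6 h, 2 up and 0 down at 24 h), so its direction depends on the probe set. At 1 h Arrdc1 stood at 0.09 in αTC1 and -0.02 in βTC3, and Arrdc4 at -0.03 and 0.04.

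Of the thioredoxin system 12 of 14 listed genes were measured. In αTC1 5 rose and 3 fell at 6 h, and 3 rose and 6 fell at 24 h. In βTC3 6 rose and 3 fell at 6 h, and 5 rose and 4 fell at 24 h, with list medians of 0.06, -0.22, 0.11 and 0.08. Thioredoxin itself (Txn1), the binding partner of the Txnip protein, was not called at 6 h (0.01 and -0.02) and fell at 24 h, by -0.51 ± 0.041 in αTC1 and -0.27 ± 0.029 in βTC3. Mitochondrial thioredoxin reductase (Txnrd2) fell in all (-0.51, -1.51, -1.23 and -1.30). The cytosolic reductase Txnrd1 moved less (0.09, -0.25, 0.30 and 0.10, called at 24 h in αTC1 and 6 h in βTC3). Peroxiredoxin Prdx1 (0.26, 0.75, 0.12 and 0.38) and glutaredoxin Glrx2 (0.41, 0.22, 0.53 and 0.65) rose in all. Sulfiredoxin Srxn1 read -0.29, 0.16, -0.43 and -0.28, a fall in all except αTC1 at 24 h, where it was not called.

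Of 15 listed glucose-responsive target genes 13 were measured. In αTC1 3 rose and 4 fell at 6 h, and 4 rose and 4 fell at 24 h. In βTC3 4 rose and 2 fell at 6 h, and 2 rose and 3 fell at 24 h (medians 0.05, 0.00016, 0.01 and -0.04). Arrdc4 stands in this list too. G6pc2, an islet glucose-6-phosphatase, fell in all (-2.83, -2.81, -2.18 and -1.60). Fatty acid synthase Fasn fell in all as well (-0.26, -1.02, -0.20 and -0.65). The fatty acid elongase Elovl6 fell in αTC1 (-0.48 and -0.79), and in βTC3 it rose at 6 h (1.00) and fell at 24 h (-0.40). Ketohexokinase Khk rose in all (0.17, 0.43, 0.59 and 0.87). Scd1, a fatty acid desaturase, rose in all (0.68, 0.29, 0.46 and 0.39). Thrsp, a lipogenic gene, rose in αTC1 (2.11 and 0.62) and was not called in βTC3 (-0.01 and -0.04). These last 2 genes were added after their values were seen. In all 7, 8, 6 and 5 of the 13 were called, a share near that of all genes, and 5 were called at 24 h in αTC1 with genes below the median level left out.

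Of 16 listed regulators and partners of Txnip 13 were measured. 3 rose and 3 fell at 6 h and 1 rose and 4 fell at 24 h in αTC1, and 1 rose and 6 fell at 6 h and none rose and 6 fell at 24 h in βTC3 (medians -0.04, -0.08, -0.21 and -0.10). With arrays centred on their medians 10 were called at 6 h in αTC1. Mlxip, which encodes MondoA, rose at 6 h in both lines (0.80 ± 0.0595 and 0.97 ± 0.0647) and was not called at 24 h (0.03 and -0.09). Mlxipl, which encodes ChREBP, rose in αTC1 (0.63 and 1.20) and fell in βTC3 (-1.14 and -1.01). Their partner Mlx fell except at 6 h in αTC1 (-0.19, -0.50, -0.35 and -0.38). Nfyc, a subunit of the CCAAT-binding factor NF-Y, fell in all (-0.74, -0.23, -2.0 and -0.57). Itch, a ubiquitin ligase for the Txnip protein, fell in all (-0.27, -0.35, -0.21 and -0.25).

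Of 8 listed genes of glucose uptake and phosphorylation 7 were measured. In αTC1 6 rose and none fell at 6 h, and 3 rose and 1 fell at 24 h. In βTC3 6 rose and none fell at 6 h, and 5 rose and none fell at 24 h (medians 0.90, 0.03, 0.82 and 0.40). With genes below the median level left out, fewer were tested and 3 and 1 were called in αTC1 and 3 and 2 in βTC3. The sugar transporters Slc2a8 (1.15, 0.95, 1.25 and 0.80), Slc2a4 (1.04, 1.00, 1.20 and 0.77) and Slc2a3 (0.96, 0.92, 0.55 and 0.20) rose in all. Hk2, a hexokinase, was called except at 24 h in αTC1 (0.90, 0.03, 0.82 and 0.67). Slc2a1, the broadly expressed glucose transporter, rose at 6 h (0.75 and 0.30) and was not called at 24 h (-0.07 and -0.14).

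**Figure D5:**
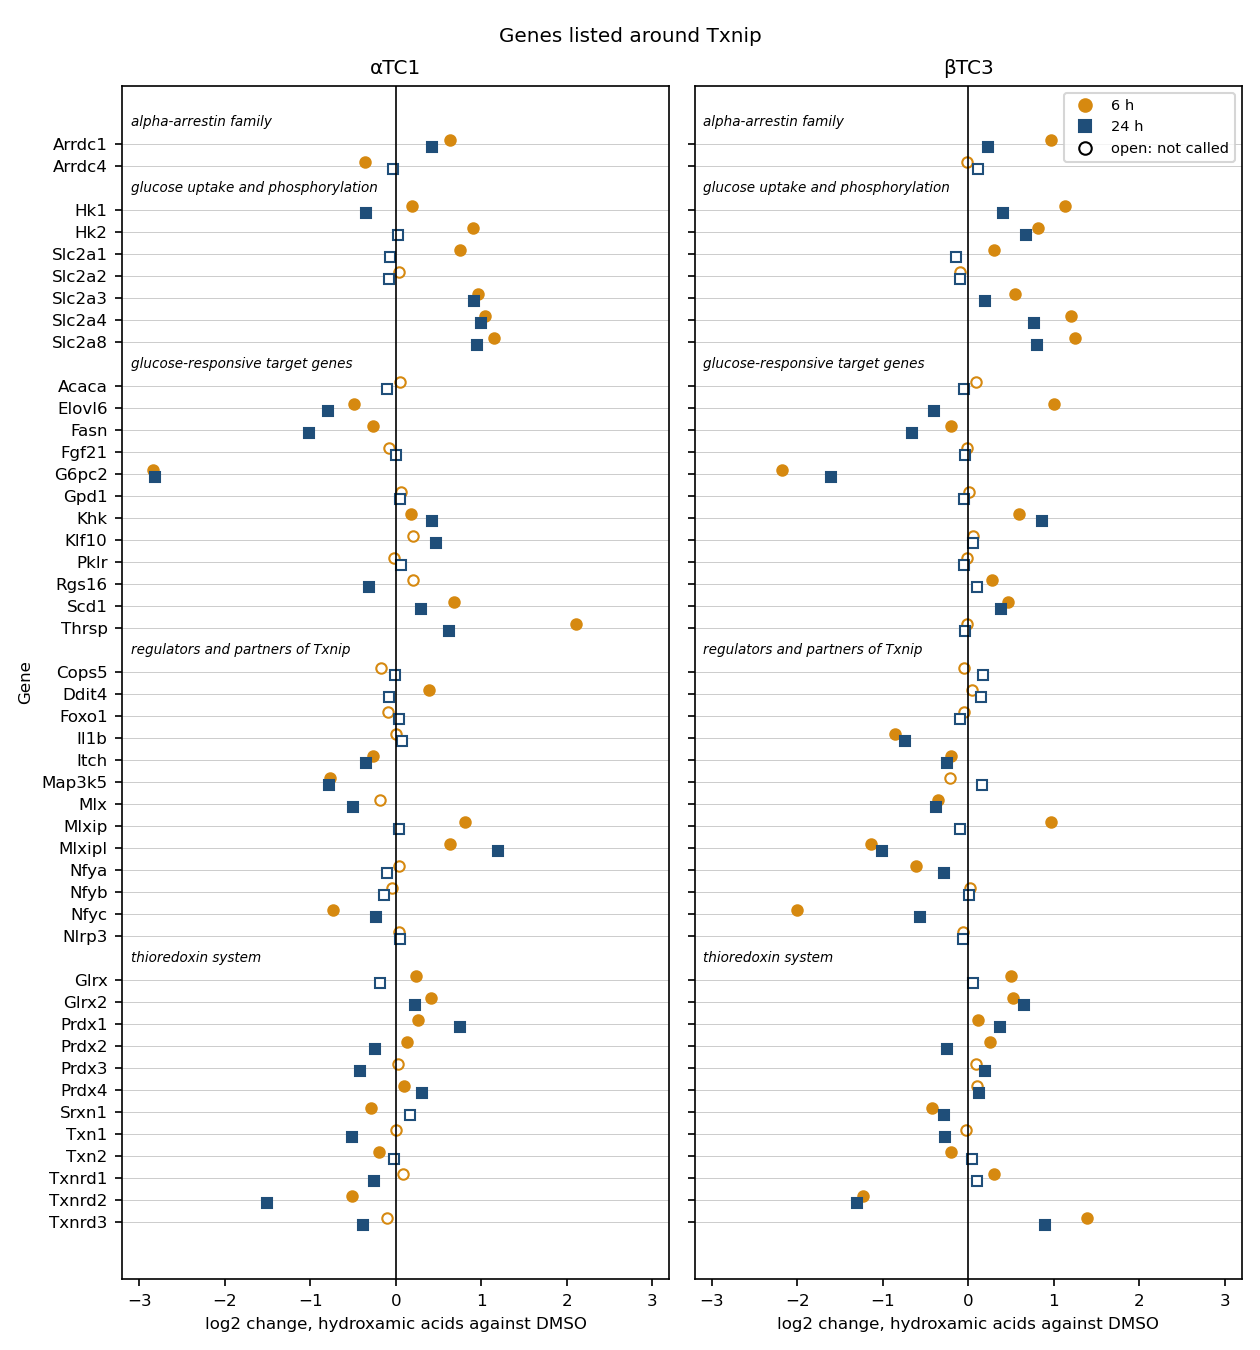
Change under the hydroxamic acids against DMSO (log2, x axis) of the measured genes of the 5 lists (y axis) at 6 h (circles) and 24 h (squares) in αTC1 (left) and βTC3 (right), with open symbols where the adjusted p was not under 0.05. G6pc2 lies farthest to the left (-2.83 and -2.18 at 6 h), and Mlxipl lies on opposite sides in the lines.

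The genes with profiles most like that of Txnip were found over 180 group means (30 treatments, 3 times and 2 lines), each minus the mean of its line and time. The highest Pearson r were those of Oser1 (0.75), Tdp2 (0.74), Plekhf1 (0.73), 4921524J17Rik (0.72) and Gpcpd1 (0.71). The lowest were those of Ap4s1 (-0.71), Tmem186 (-0.70) and Uxt (-0.70). Over the 60 group means of 1 h alone they were Clp1 (0.89), Tob2 and Phf13 (0.85 each), Atg12 (0.84) and Mad2l1bp (0.84). The points share arrays and DMSO groups, genes were picked for these values, and no test was made. Of the 5 highest over 180 means, 2 were also among the 5 highest by Spearman's rho and 2 with all probe sets averaged, and of the 5 at 1 h the counts were 4 and 1. Of the 5 highest over 180 means, Gpcpd1 had an r at 1 h of -0.22 in αTC1 and -0.06 in βTC3, Plekhf1 0.68 and -0.04, and Tdp2 0.27 and 0.78 (30 means each). Oser1 had 0.79 in αTC1 and 0.56 in βTC3, and 4921524J17Rik 0.79 and 0.70.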

How the data were processed

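RNA of cultured cells was read on 594 arrays. The deposited values are linear intensities of probe sets. The submitters' processing notes name RMA. Its version, background and scaling settings are not given in the sources used here. The log2 of each deposited intensity was taken, since the values were not yet on a log scale as the design had assumed. Of 22716 probe sets, 18003 had 1 gene symbol, 287 several and 4426 none, and the brightest probe set stood for each of 11807 genes (4150 genes had more than 1).

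Each line and time was fitted with limma 3.58.1 in R 4.3.3 with data.table (version 1.17.8), with all 30 treatments and batch as terms, and Benjamini-Hochberg adjustment ran over all genes (threshold 0.05). Differences between times or lines came from joint fits, with 1 batch term shared by both times or both lines. Classes weighted compounds equally. The scripts were tested on simulated data. The gene, the lists and the tests were chosen with earlier results of these data known. Named genes were all measured α-arrestins, up to 4 genes per list called in the same direction in both lines, set genes (Txn1, Txnrd1, Mlxip, Mlxipl, Slc2a1), and the profiles most like and unlike Txnip. Scd1 and Thrsp fall outside this rule and were added after their values were seen. Replicate numbers did not pair the arrays. Alternatives changed the batch term, plate, probe set, centring, quantile normalization, low genes and arrays left out.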

Additional observations from a re-analysis of the deposited data

Results flagged for a closer look

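The following differences of Txnip between times or lines passed a test of the difference itself. Between times the change against DMSO was larger at 24 h than at 6 h by 0.65 (log2) under the hydroxamic acids in αTC1, by 1.62 under the ortho-amino anilides in αTC1, by 0.53 under the hydroxamic acids in βTC3 and by 0.54 under the ortho-amino anilides in βTC3. Between lines the change at 24 h was larger in αTC1 than in βTC3 by 1.07 under the ortho-amino anilides and by 0.94 under the cyclic tetrapeptides. Only the growth under the ortho-amino anilides in αTC1 kept its call under all alternatives run. The other growths lost theirs with the other probe set or with no batch term. The line difference under the ortho-amino anilides lost its call without replicate 1 (0.88, adjusted p = 0.051). That under the cyclic tetrapeptides was lost under several alternatives and read 0.56 with the other probe set (adjusted p = 0.408). Dixon's test was run on the groups of 4 to 10 arrays, which were chaetocin at 24 h in αTC1 (4 arrays) and DMSO at 6 h in βTC3 (10 arrays); no array stood apart.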

How the results depend on the processing

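The rises of Txnip against DMSO under the 3 classes at 6 and 24 h kept their direction and call under all alternatives run, except that of the anilides at 6 h in αTC1 with the other probe set (0.66, adjusted p = 0.0849). Within single batches the 1 h value of the hydroxamic acids reached 1.77 in αTC1, that of the cyclic tetrapeptides read 1.66 and 0.16 in αTC1 and 1.34 and -0.0032 in βTC3, and the 24 h value of the hydroxamic acids read 1.23 and 2.65 in αTC1 and 0.66, 0.39 and 2.05 in βTC3. The causes of the changes below were not tested.

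In the contrast of hydroxamic acids with ortho-amino anilides at 6 h in αTC1 the call was lost with no batch term (0.29), only the groups compared (0.22) or the other probe set (0.45). At 24 h in αTC1 it was lost with no batch term (-0.56). At 6 h in βTC3 it was lost with no batch term (-0.059), only the groups compared (-0.16), the other probe set (-0.27) and that with plate (-0.24). At 24 h in βTC3 it was gained with plate as a fixed term (-0.25) or block (-0.22), dim genes left out (-0.20) or quantile normalization (-0.22). Leaving out 1 replicate, array or compound gave 0.21 to 0.36 and -0.63 to -0.34 in αTC1 and -0.40 to -0.17 and -0.32 to -0.076 in βTC3 (6 and 24 h).

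The growth from 6 to 24 h lost its call for the hydroxamic acids in αTC1 with the other probe set (0.70, and 0.50 with plate) and in βTC3 with no batch term (0.48), and for the ortho-amino anilides in βTC3 with no batch term (0.49), the other probe set (0.56) and that with plate (0.43). That of the cyclic tetrapeptides in βTC3 turned with no batch term (-0.0019) and ran from -0.13 to 0.23 in leave-outs. Between lines, the hydroxamic acids at 6 h gained a call with plate as a block (0.33), dim genes left out (0.33) or only the groups compared (0.35), and the ortho-amino anilides at 6 h turned with plate as a fixed term (0.089) or block (0.052). The cyclic tetrapeptides at 24 h lost theirs with centred arrays (0.87), averaged probe sets (0.75), no batch term (1.02), the other probe set (0.56) and that with plate (0.80). Leave-outs gave 0.29 to 0.43 for the hydroxamic acids and -0.22 to 0.098 for the ortho-amino anilides at 6 h, and 0.40 to 0.64, 0.88 to 1.21 and 0.66 to 1.19 at 24 h for the hydroxamic acids, the anilides and the cyclic tetrapeptides.

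In DMSO, the line difference at 6 h lost its call with plate as a fixed term (0.24) or block (0.23), averaged probe sets (0.20), no batch term (0.27), the other probe set (0.13) and that with plate (0.28), with leave-outs of 0.20 to 0.30. At 24 h it turned with centred arrays (0.0079), with leave-outs of -0.13 to 0.015. The difference between 24 and 6 h lost its call in αTC1 with no batch term (-0.61) or the other probe set (-0.65), and in βTC3 with no batch term (-0.27), the other probe set (-0.48) and that with plate (-0.34), with leave-outs of -0.34 to -0.23.

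Among the pairs at 10 µM in αTC1 at 6 h, ITF-2357 against pyroxamide turned with averaged probe sets (0.49), the other probe set (1.24) and that with plate (0.48), and ITF-2357 against CI-994 gained a call with averaged probe sets (0.68) and the other probe set with plate (1.04). Pyroxamide against CI-994 lost its call with plate as a fixed term (0.22) or block (0.28), centred arrays (0.33), averaged probe sets (0.19), no batch term (0.44) and the other probe set with plate (0.56), and turned with the other probe set alone (-0.086), with leave-outs of 0.47 to 0.55. 5-azadeoxycytidine against zebuarine gave -0.097 to 0.30 in leave-outs at 6 h, and at 24 h lost its call with no batch term (1.67), with leave-outs of 1.25 to 1.86. ITF-2357 against pyroxamide at 24 h gave -0.23 to 0.23. In βTC3 at 6 h the sign turned for ITF-2357 against pyroxamide with the other probe set and plate (0.090), for ITF-2357 against CI-994 (0.090) and pyroxamide against CI-994 (0.18) with no batch term, and for 5-azadeoxycytidine against zebuarine with the other probe set (-0.28). Leave-outs there ran from -0.59 to 0.026 for ITF-2357 against CI-994 and from -0.43 to 0.038 for pyroxamide against CI-994. At 24 h in βTC3 ITF-2357 against pyroxamide lost its call with no batch term (0.59), the other probe set (0.58) and that with plate (0.62). ITF-2357 against CI-994 lost its call with averaged probe sets (0.57), no batch term (0.53), the other probe set (0.55) and that with plate (0.64), with leave-outs of 0.53 to 0.58. Pyroxamide against CI-994 turned with the other probe set and plate (0.023).

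Counts moved for the α-arrestins with averaged probe sets (1 at 6 h and 2 at 24 h in αTC1) and in leave-outs at 24 h in βTC3 (0 to 1, with 0 without replicate 2), for the regulators at 6 h in αTC1 with centred arrays (10), for the glucose-responsive genes at 24 h in αTC1 with dim genes left out (5), and for the glucose uptake genes with dim genes left out (3 and 1 in αTC1, 3 and 2 in βTC3, at 6 and 24 h). Compounds called with the other probe set were 11 in αTC1 and 6 in βTC3 at 6 h, all up.

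With the replicate number as a block, 18 of 20 results kept direction and call, the hydroxamic acids against the anilides at 24 h in αTC1 lost theirs (-0.45, adjusted p = 0.0831), and 5-azadeoxycytidine against zebuarine at 6 h in αTC1 turned (-0.0014). The numbers share no more than a name, since deviations of same-numbered arrays correlated at a mean r of 0.0087 to 0.023. Plate as a fixed term, the other probe set alone and both together were alternatives chosen after seeing the data. With 3 arrays per compound, the array number limits the precision of single compounds.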
